A study of Mus musculus with 34 samples.

Results

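AP-1 is a family of transcription factors that bind DNA as dimers of Fos, Jun and ATF proteins, and 7 of its genes are described here, namely Fos, Fosb, Fosl2, Jun, Junb, Jund and Atf3. The rule that found them is their gene symbol, and they are 7 of the 54540 distinct symbols that the 5 deposited tables list together. All 7 are listed in the tables of batches 1, 3, 4 and 5. The batch 2 table lists 6 of them, and Atf3 was not analysed there.

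The libraries hold mRNA pulled down with HA-tagged ribosomes (RiboTag), from C57/BL6 mice at postnatal day 60. The tissue label reads cortex and hippocampus, and the extraction protocol speaks of cortices. The tag, on the ribosomal protein Rpl22, is made only in cells with Cre recombinase, which was driven by the parvalbumin gene (PV libraries) or the somatostatin gene (SST libraries); all 34 libraries carry both the tag and a Cre driver. The 11 groups are PV PTZ (n = 4) and PV saline (n = 3) in batch 1; SST PTZ (n = 3), SST saline (n = 4) and PV saline (n = 2) in batch 2; PV CFC (n = 3), PV Nr4a1 cKO kept in the home cage (n = 3) and PV home cage (n = 3) in batch 3; SST CFC (n = 3) and SST home cage (n = 3) in batch 4; and SST Nr4a1 cKO kept in the home cage (n = 3) in batch 5. PTZ is pentylenetetrazol, a GABA receptor antagonist that excites neurons widely, and CFC is contextual fear conditioning, in which mice learn to link a place with foot shocks. The cKO genotypes are PV:Cre/Nr4a1-f/f/Ribotag and Sst:Cre/Nr4a1-f/f/Ribotag. By this design deletion would be limited to cells that express the driver, and no group holds floxed mice without Cre. The sources used here do not give the time between stimulus and dissection.

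Fos is the classical immediate early gene, a gene that neurons transcribe soon after strong activity without first making new protein, and several of the other genes are known to respond in the same way. Fos proteins cannot pair with each other and need a Jun partner, while Jun proteins can pair among themselves. Calcium entry reaches the Fos promoter through kinases that act on CREB and SRF, and Jun protein is activated by phosphorylation through the JNK kinases. In the brain, Fos protein and mRNA are used as marks of recently active cells.

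The genes lie on separate chromosomes except for Junb and Jund, which share chromosome 8. In GENCODE M21 on GRCm38 (the build also called mm10), Fos spans chr12:85473890-85477273 on the plus strand, Fosb chr7:19302696-19310051 on the minus strand, and Fosl2 chr5:32135801-32157842 on the plus strand. Jun spans chr4:95049034-95052222 on the minus strand, Junb chr8:84974484-84978718 on the minus strand, Jund chr8:70698949-70700616 on the plus strand and Atf3 chr1:191170296-191218039 on the minus strand. Jun and Jund are annotated with 1 exon each. The deposited tables give no coordinates, so these positions come from the annotation alone.

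Promoter windows of RefSeq on GRCm38.p6, from 250 bases before to 50 bases after the start site, were found for 7 of 7 genes and searched on both strands for short known motifs. The 4 below are shown because Fos, Fosb and Junb passed the test in at least 1 stimulus comparison, while Jun did not. They lie at chr12:85473640-85473939 (plus strand, Fos), chr7:19309996-19310295 (minus strand, Fosb), chr8:84978699-84978998 (minus strand, Junb) and chr4:95052173-95052472 (minus strand, Jun), are written 5′ to 3′ along the gene, and have every motif match in capitals.
Fos: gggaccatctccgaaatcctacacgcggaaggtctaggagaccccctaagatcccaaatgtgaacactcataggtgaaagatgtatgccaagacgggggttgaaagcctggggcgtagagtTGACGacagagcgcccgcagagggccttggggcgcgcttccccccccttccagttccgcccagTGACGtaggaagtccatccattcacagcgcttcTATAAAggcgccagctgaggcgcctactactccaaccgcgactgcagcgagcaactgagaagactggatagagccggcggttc
Fosb: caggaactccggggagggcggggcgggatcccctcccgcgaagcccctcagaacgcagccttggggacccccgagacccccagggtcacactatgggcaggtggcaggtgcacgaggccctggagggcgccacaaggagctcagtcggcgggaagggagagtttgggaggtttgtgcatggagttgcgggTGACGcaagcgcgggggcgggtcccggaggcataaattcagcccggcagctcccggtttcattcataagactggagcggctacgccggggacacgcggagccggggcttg
Junb: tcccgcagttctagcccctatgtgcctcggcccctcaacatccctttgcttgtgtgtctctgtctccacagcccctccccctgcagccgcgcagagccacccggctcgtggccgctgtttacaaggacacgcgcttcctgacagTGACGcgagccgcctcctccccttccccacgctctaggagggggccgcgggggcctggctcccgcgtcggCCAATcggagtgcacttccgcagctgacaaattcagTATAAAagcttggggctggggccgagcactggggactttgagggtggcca
Jun: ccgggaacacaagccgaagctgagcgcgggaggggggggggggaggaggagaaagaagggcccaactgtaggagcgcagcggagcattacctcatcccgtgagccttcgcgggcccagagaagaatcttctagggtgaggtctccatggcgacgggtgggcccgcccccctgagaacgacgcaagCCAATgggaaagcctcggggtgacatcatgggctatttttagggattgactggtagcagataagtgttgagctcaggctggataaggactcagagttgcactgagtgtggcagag

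The letters TGACG, the first letters of the cAMP response element (CRE) that CREB binds, stood in 4 of the 7 windows, against 20.8% of 32851 windows of the same length. They stood at -129 and -66 from the start site in Fos, at -60 in Fosb and at -106 in Junb, and on the opposite strand at -7 in Atf3. TATAAA stood in 2 of 7 windows (13.6% of all), at -33 in Fos and at 1 in Junb. CCAAT stood in 3 of 7 (37.4% of all), at -65 in Jun and -36 in Junb, and on the opposite strand at 6 in Atf3. The full CRE, TGACGTCA, stood in 0 of 7 (1.79% of all), the AP-1 site TGANTCA in 0 of 7 (7.81%) and the CArG box bound by SRF in 0 of 7 (1.63%). Sequence farther than 250 bases before the start site was not searched, so these counts do not cover sites there. Start sites of the Fos and Jun windows match the GENCODE spans given above. The windows of Fosl2 (chr5:32136222-32136521), Jund (chr8:70697489-70697788) and Atf3 (chr1:191183284-191183583) belong to other start sites. That of Jund lies before the printed gene, and those of Fosl2 and Atf3 lie inside theirs. The Junb start site lies shortly before the printed gene and that of Fosb shortly inside it. Motif positions count from the start site of each window. No matches overlapped in these 7 windows, and a match of letters is a description of the window, not a binding site.

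Library totals ran from 4933110 to 27282912 counts, and the 2 PV saline libraries of batch 2 were the shallowest. Levels are given as CPM, counts per 1000000 after TMM scaling within each table, and a gene was called changed at an adjusted p under 0.05. Sst stood at 1746 to 6084 CPM in SST libraries and at 30.2 to 464 CPM in PV libraries. Pvalb was low in batch 1, at 40.3 to 128 CPM in PV PTZ and 15.9 to 22.1 CPM in PV saline libraries, where the 6 PV interneuron markers together reached 661 to 2022 CPM and 2320 to 3008 CPM. Pvalb alone did not separate the Cre lines in the later batches, at 143 to 1346 CPM in PV libraries of batch 3 and at 87.3 to 477.9 CPM in SST libraries of batches 4 and 5. In bulk libraries a change in the number of captured cells and a change of mRNA per cell cannot be told apart.

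After PTZ, PV cells held more Fos and Fosb, and 2 of the 7 genes passed the test. Fos, the founding immediate early gene of the family, stood at 170.8, 94.5, 109.9 and 134 CPM in the PV PTZ libraries, against 16.3, 3.19 and 6.26 CPM in the PV saline libraries. Every PTZ library was above every saline library, and saline replicate 1 was the highest of its group. The log2 fold change was 3.91 ± 0.51 (SE; edgeR quasi-likelihood F test, adjusted p = 0.0395). Fosb, whose stable splice form is known to build up after repeated stimulation, stood at 119.6, 88.2, 59.2 and 83.7 CPM in PTZ libraries, against 7.52, 1.51 and 3.53 CPM in saline libraries. These groups were again apart, and Fosb rose by 4.42 ± 0.50 on the log2 scale (edgeR adjusted p = 0.02003). Over all 13598 genes tested, 0.0294% were called higher and 0% lower.

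The other 5 genes did not pass in PV cells, although all 7 fold changes were above 0. Junb, a Jun protein induced along with Fos in neurons, stood at 9.49, 12.5, 9.94 and 11.5 CPM in PTZ libraries, against 3.34, 0.869 and 1.22 CPM in saline libraries. The groups did not overlap, and the log2 difference of 2.62 ± 0.44 had an edgeR adjusted p of 0.159. Atf3, a stress-induced member that can repress transcription, stood at 2.35, 2.49, 3.27 and 3.13 CPM in PTZ libraries, against 0.501 CPM in saline replicate 1 and 0 CPM in replicates 3 and 4, where a count of 0 allows up to 0.174 and 0.183 CPM. Its 44 to 54 counts per PTZ library lay above all saline libraries (log2 difference 4.23 ± 0.95, edgeR adjusted p = 0.240). Jun stood at 37.5 to 47.9 CPM in PTZ libraries and 20.0 to 26.6 CPM in saline libraries, which were also apart (0.77 ± 0.20, edgeR adjusted p = 0.267). Fosl2, which encodes Fra-2, overlapped between 57.5 to 141.7 CPM and 28.8 to 60.3 CPM. Jund, the family member known for steady expression, overlapped too, at 5.70 to 8.03 CPM in PTZ libraries and 4.75 to 7.48 CPM in saline libraries, and its log2 difference was 0.16 ± 0.28. Thus 5 of 7 genes were apart and higher, where 7.56% of all genes tested were, and 6.24% were apart and lower; the median log2 difference was 2.62 for the 7 genes and -0.01 for all genes.

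The PV calls were sensitive to single libraries. None of the 7 genes was called without saline replicate 4 or without PTZ replicate 2, 3 or 4. Only Fosb was called without saline replicate 3, and 4 of 7 were called without saline replicate 1. A term for sex, read from the libraries, left 0 called, and DESeq2 called 6. Saline replicates 1 and 3 and PTZ replicate 2 read as female and the others as male, so sex was not balanced between the groups. Over all genes the count was likewise 0 without saline replicate 4 or PTZ replicate 2, 3 or 4 and with the sex term, 2 without saline replicate 3, 14 without saline replicate 1 and 215 with DESeq2. Most markers of other cells had fold changes above 0 after PTZ in batch 1, while the sums of their lists overlapped between PTZ and saline libraries. Of 8 microglia markers 8 were above 0 (summed 59.7 to 449.8 CPM in PTZ and 44.9 to 131 CPM in saline libraries). So were 10 of 10 vascular markers (48.9 to 114 CPM and 20.5 to 50.5 CPM) and 9 of 9 oligodendrocyte markers (616 to 3469 CPM and 840.5 to 2271 CPM). Also above 0 were 8 of 8 excitatory markers (1673 to 2456 CPM and 1171 to 2827 CPM) and 7 of 8 astrocyte markers (405 to 577 CPM and 242 to 798 CPM). Below 0 were 5 of 6 PV interneuron markers, whose sums given above did not overlap, and 5 of 5 pan-interneuron markers (2185 to 5173 CPM and 3844 to 6855 CPM). None of these markers passed the test, none was at 0 in all libraries of the table, and their part in the result was not tested.

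In SST cells PTZ raised Fos, Fosb and Junb, 3 of the 6 genes tested. Fosb showed the largest change of the 6, at 203.7, 391.6 and 315 CPM in the SST PTZ libraries, against 9.31, 7.08, 5.03 and 7.19 CPM in the SST saline libraries. It rose by 5.4 ± 0.24 on the log2 scale (edgeR adjusted p = 6.04e-07). Fos stood at 225, 504.5 and 504.3 CPM in PTZ libraries, against 48.5, 16.4, 24.9 and 30.8 CPM in saline libraries, with PTZ replicate 1 below the other two and saline replicate 1 above its group. Its log2 fold change was 3.77 ± 0.37 (edgeR adjusted p = 0.000446). Junb stood at 16.1, 15.9 and 16.8 CPM in PTZ libraries, against 2.06, 1.06, 1.48 and 1.65 CPM in saline libraries, and spread little among the PTZ libraries. It rose by 3.37 ± 0.32 (edgeR adjusted p = 0.000381). Over 11784 genes, 0.144% were called higher and 0% lower.

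Jun and Fosl2 were also higher in every SST PTZ library than in every saline library but were not called. Jun stood at 43.4, 59.8 and 60.7 CPM in PTZ libraries, against 36.7, 13.7, 15.1 and 18.4 CPM in saline libraries, where replicate 1 again stood above the rest (log2 difference 1.38 ± 0.30, edgeR adjusted p = 0.230). Without that library Jun was called, with a log2 fold change of 1.79 and an edgeR adjusted p of 0.00201. Fosl2 stood at 75.6 to 82.7 CPM in PTZ libraries and at 38.8 to 49.6 CPM in saline libraries (0.86 ± 0.30, edgeR adjusted p = 0.990). Jund overlapped, at 6.09 to 6.81 CPM and 4.10 to 8.31 CPM. In all, 5 of 6 genes were apart and higher, against 4.57% of all genes (5.84% apart and lower), and the median log2 difference was 2.37 for the 6 genes and -0.01 for all.

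The Fosb and Junb calls in SST cells held without any single library, and so did that of Fos; with only the PTZ and SST saline groups in the fit the edgeR adjusted p of Fos was 0.101, and Fosl2 was called (edgeR adjusted p = 0.00129). Of the marker lists, 7 of 7 excitatory markers had fold changes above 0 (summed 1370 to 1739 CPM in PTZ and 1085 to 1617 CPM in saline libraries) and 6 of 6 PV interneuron markers below 0 (1011 to 1115 CPM and 1146 to 1361 CPM), 0 of them past the test; their part in the result was not tested. Set side by side, the SST and PV responses to PTZ did not differ past the test for any of the 6 genes, where 0% of 11743 genes did (602 had an unadjusted p under 0.05, and DESeq2 called 1). The largest difference of a called gene was that of Fosb, 0.93 ± 0.52 on the log2 scale (SST response minus PV response, edgeR adjusted p = 0.820). That of Fos was -0.18 ± 0.63 and that of Junb 0.71 ± 0.56, and a p above the threshold does not show that the responses are equal. Each response was measured in its own batch, so Cre line and batch cannot be told apart in these differences.

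**Figure D1:**
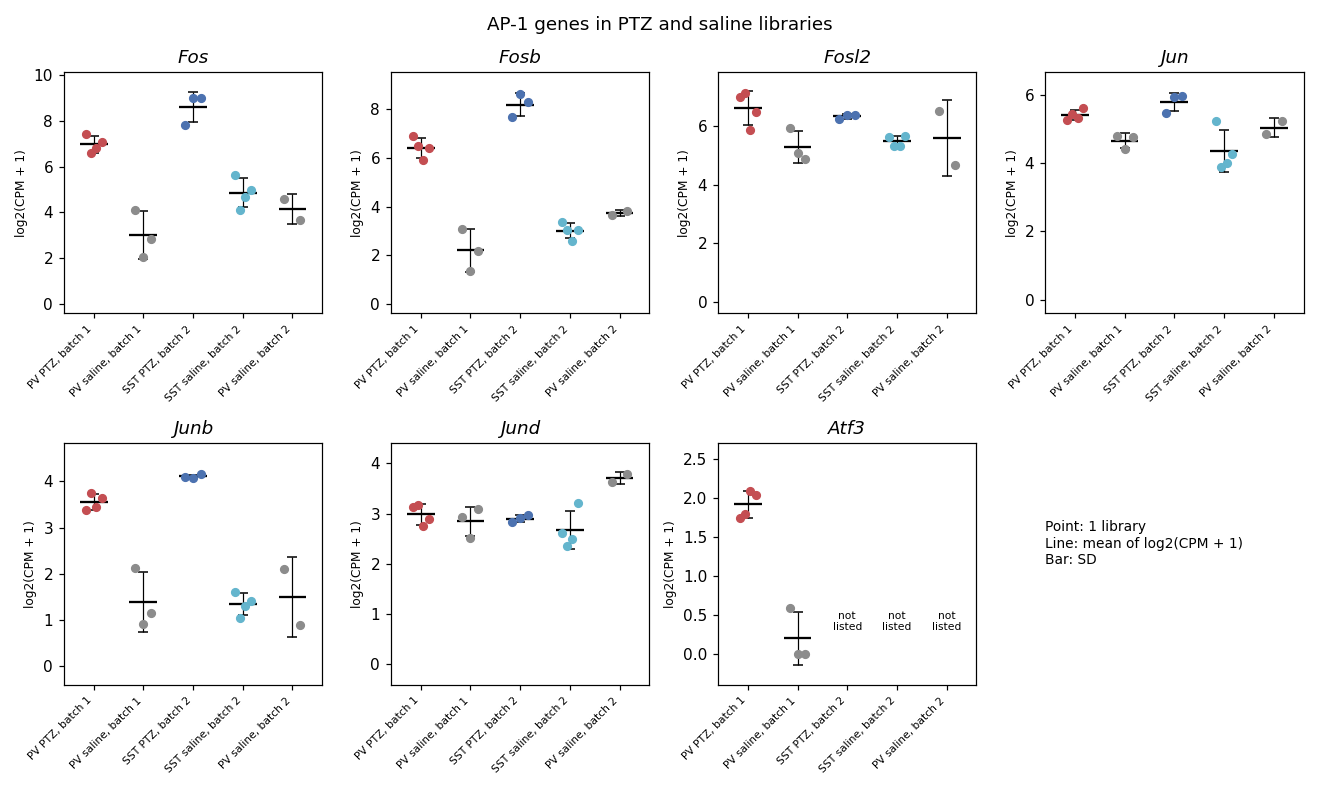
Levels of the 7 genes in PTZ and saline libraries, as log2(CPM + 1) on the vertical axis with 1 point per library, a line at the group mean and a bar for the SD. The PTZ points of Fos, Fosb and Junb lie above all saline points of the same batch, while those of Jund overlap them.

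After CFC no gene passed the test in PV cells, where 0% of 15150 genes were called higher and 0% lower by edgeR. Over all genes 2834 had an unadjusted p under 0.05, and DESeq2 called 745. Fos stood at 78.2, 75.0 and 93.5 CPM in the PV CFC libraries, against 28.9, 17.6 and 36.2 CPM in the PV home cage libraries. The groups were apart, with a log2 difference of 1.58 ± 0.45 (edgeR adjusted p = 0.186). Without the filter on low counts edgeR called Fos (adjusted p = 3.39e-12) and Junb (adjusted p = 0.000878), among 1032 genes called. Junb stood at 55.4, 49.2 and 56.2 CPM in CFC libraries, against 26.3, 23.8 and 34.8 CPM in home cage libraries, also apart (0.92 ± 0.20, edgeR adjusted p = 0.186). DESeq2 called Junb (adjusted p = 0.0123), as did edgeR without home cage replicate 1 (adjusted p = 0.0379), where 1481 of 15700 genes were called.

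Of the remaining genes in PV cells, Jun stood at 69.4, 70.1 and 75.9 CPM in CFC libraries, against 59.8, 58.2 and 47.4 CPM in home cage libraries, a small gap that did not pass (log2 difference 0.38 ± 0.14, edgeR adjusted p = 0.202). Fosb was scarce: 49, 62 and 84 counts (2.23, 2.62 and 3.47 CPM) in CFC libraries, against 5, 6 and 23 counts (0.244, 0.413 and 2.51 CPM) in home cage libraries. Home cage replicate 3, which had the fewest counts in batch 3, reached into the CFC range, and the log2 difference was 1.47 ± 0.78 (edgeR adjusted p = 0.325). Atf3 stood at 0.775, 1.19 and 1.61 CPM in CFC libraries, against 0.244, 0.757 and 0.109 CPM in home cage libraries (1.63 ± 0.72, edgeR adjusted p = 0.254). Fosl2 and Jund overlapped between the groups, with log2 differences of -0.16 ± 0.36 and 0.07 ± 0.22. The count of 4 of 7 genes apart and higher stood against 13.6% of all genes (11.4% apart and lower), and the medians were 0.92 for the 7 genes and 0.02 for all. Astrocyte markers were above 0 for 8 of 8 (summed 658 to 687 CPM in CFC and 505 to 714 CPM in home cage libraries). Oligodendrocyte markers were above 0 for 8 of 9 (259 to 562 CPM and 220 to 399 CPM). SST interneuron markers were below 0 for 4 of 5 tested (437 to 565 CPM and 596 to 1145 CPM over the 6 listed). Excitatory markers were below 0 for 6 of 8 (314 to 410 CPM and 301 to 358 CPM). The part of these markers in the differences was not tested.

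In SST cells CFC raised Fos and Junb, 2 of the 6 genes tested. Fos stood at 134.9, 151.4 and 143 CPM in the SST CFC libraries, against 26.7, 13.8 and 9.38 CPM in the SST home cage libraries. It rose by 3.11 ± 0.33 on the log2 scale (edgeR adjusted p = 0.0275). Junb stood at 116.3, 113 and 108 CPM in CFC libraries, against 55.9, 38.8 and 38.6 CPM in home cage libraries, and rose by 1.34 ± 0.16 (edgeR adjusted p = 0.0438). Over 14614 genes 0.0342% were called higher and 0.00684% lower, and 4.8% and 5.8% were apart and higher or lower. Both calls were lost without any 1 of the 3 CFC libraries or of home cage replicates 2 and 3; Fos then had log2 fold changes of 2.82 or more and Junb of 1.25 or more.

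The other genes of SST cells did not pass the test after CFC. Fosb stood at 1.53, 1.69 and 1.83 CPM (26, 26 and 34 counts) in CFC libraries, against 0.747, 1.90 and 0 CPM (13, 32 and 0 counts) in home cage libraries, where a count of 0 allows up to 0.147 CPM. The groups overlapped, and the log2 difference of 0.93 ± 1.21 had an edgeR adjusted p of 0.997. Jun overlapped at 84.1 to 102 CPM in CFC libraries and 76.2 to 85.5 CPM in home cage libraries, Fosl2 at 4.28 to 8.51 CPM and 2.85 to 5.52 CPM, and Jund at 64.4 to 84.9 CPM and 74.3 to 88.0 CPM. Atf3 had 0, 0 and 17 counts in CFC libraries and 0, 14 and 4 counts in home cage libraries and was below the low-count filter. The median log2 difference of the 6 genes was 0.75 and that of all genes 0. Vascular markers were lower after CFC for 10 of 10, 1 of them past the test (summed 46.4 to 68.1 CPM in CFC and 110.9 to 567 CPM in home cage libraries). Fold changes were also below 0 for 8 of 8 astrocyte markers (319.5 to 398.4 CPM and 402.1 to 558.3 CPM). The same held for 9 of 9 oligodendrocyte markers (838.2 to 1101 CPM and 1048 to 1501 CPM). It also held for 7 of 8 microglia markers (52.8 to 61.1 CPM and 63.3 to 92.2 CPM). The vascular, astrocyte and microglia sums did not overlap between the groups. Excitatory markers were below 0 for 7 of 8 (482.6 to 624.5 CPM and 565.1 to 732.1 CPM), while 5 of 6 PV interneuron markers were above 0. The part of these markers was not tested.

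Between the CFC responses of SST and PV cells none of the 7 genes differed past the test, as with 0% of 16081 genes; 2452 had an unadjusted p under 0.05 and DESeq2 called 327. The difference was 1.58 ± 0.66 for Fos (SST response minus PV response, log2 scale, edgeR adjusted p = 0.277) and 0.47 ± 0.27 for Junb (edgeR adjusted p = 0.431). Without the filter on low counts edgeR called Fos (adjusted p = 3.89e-06), among 708 genes called. Cre line and batch cannot be told apart here either.

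**Figure D2:**
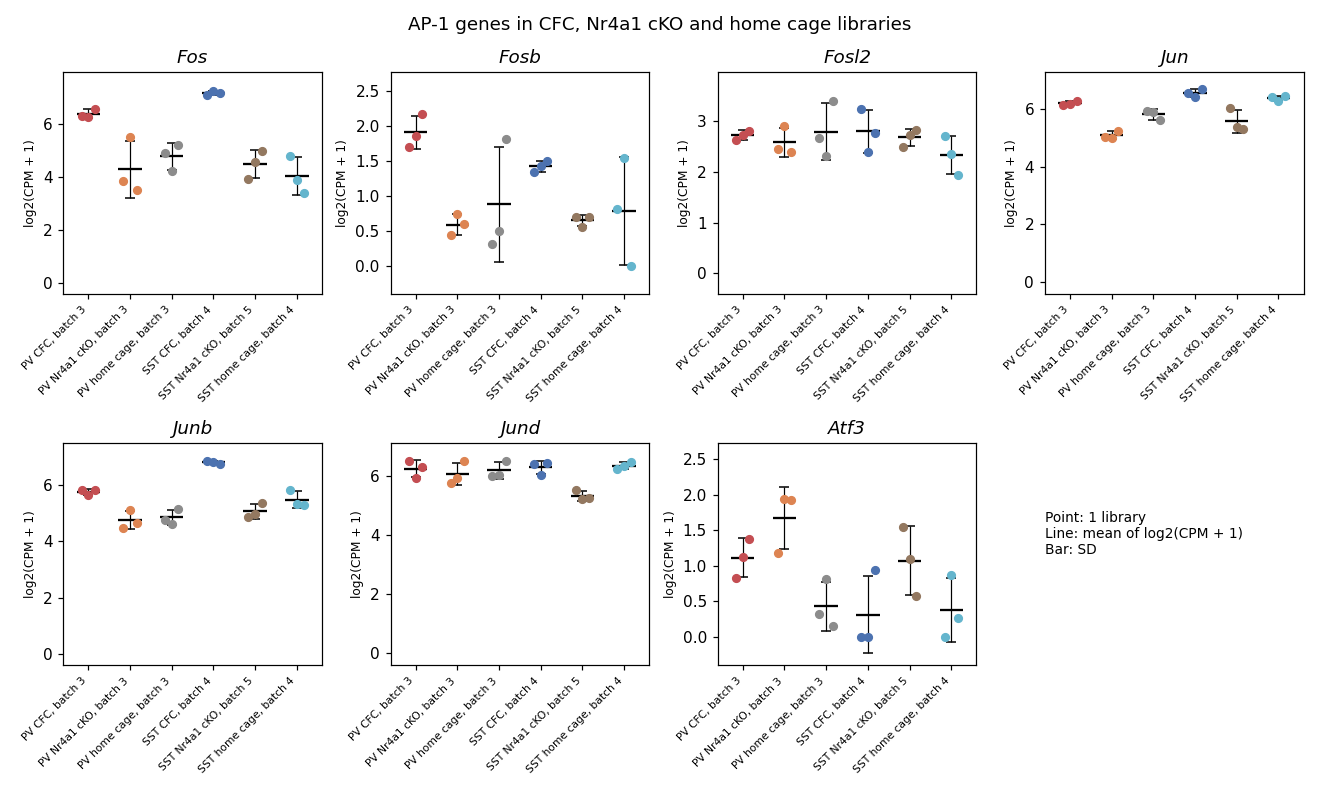
Levels of the 7 genes in CFC, Nr4a1 cKO and home cage libraries, as log2(CPM + 1) on the vertical axis with 1 point per library, a line at the group mean and a bar for the SD. Fos and Junb lie above the home cage points in CFC libraries of both Cre lines, and Jun lies below them in the PV Nr4a1 cKO libraries.

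In SST cells the response to CFC, as a log2 fold change over its own baseline, was smaller than that to PTZ for Fosb and Junb. The Fosb response was 0.93 ± 1.21 to CFC and 5.4 ± 0.24 to PTZ, a difference of -4.37 ± 0.75 on the log2 scale (CFC response minus PTZ response, edgeR adjusted p = 0.0430). Fosb was scarce on the CFC side, at 26 to 34 counts in CFC and 0 to 32 counts in home cage libraries. The Junb response was 1.34 ± 0.16 to CFC and 3.37 ± 0.32 to PTZ, a difference of -2.0 ± 0.35 (edgeR adjusted p = 0.0430). The baselines of Junb were unlike, at 1.06 to 2.06 CPM in SST saline and 38.6 to 55.9 CPM in SST home cage libraries. Its level was 15.9 to 16.8 CPM after PTZ and 108 to 116 CPM after CFC. The smaller fold change thus went with the higher level, in another batch. For Fos the responses were 3.11 ± 0.33 and 3.77 ± 0.37, and the difference of -0.64 ± 0.54 did not pass (edgeR adjusted p = 0.845). Of 11451 genes, 0.0873% were called in either direction. Both calls were lost without any 1 of 11 of the 13 libraries (1 of them remained without SST home cage replicate 3, and both without replicate 1), and limma voom and the fit with a replicate block called 0. Jun had a difference of -1.17 ± 0.38 (edgeR adjusted p = 0.449). In the same difference 6 of 6 vascular markers were below 0 (median -3.02, 2 called), as were 7 of 7 excitatory and 7 of 8 astrocyte markers, while 6 of 6 PV interneuron markers were above 0; their part was not tested.

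In PV cells the same differences ran below 0 for 7 of 7 genes but none passed. They were -2.39 ± 0.70 for Fos, -2.83 ± 0.82 for Fosb and -1.77 ± 0.45 for Junb, each with an edgeR adjusted p of 0.295 (0.007% of 14289 genes called). Without PV saline replicate 1 of batch 1, or with DESeq2, Junb was called, at -2.43 (edgeR adjusted p = 0.0239) and -1.90 (DESeq2 adjusted p = 0.0165). Jund was at -0.15 ± 0.33. PTZ and CFC were run in different batches with different baselines, saline and home cage, so stimulus and batch cannot be told apart.

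**Figure D3:**
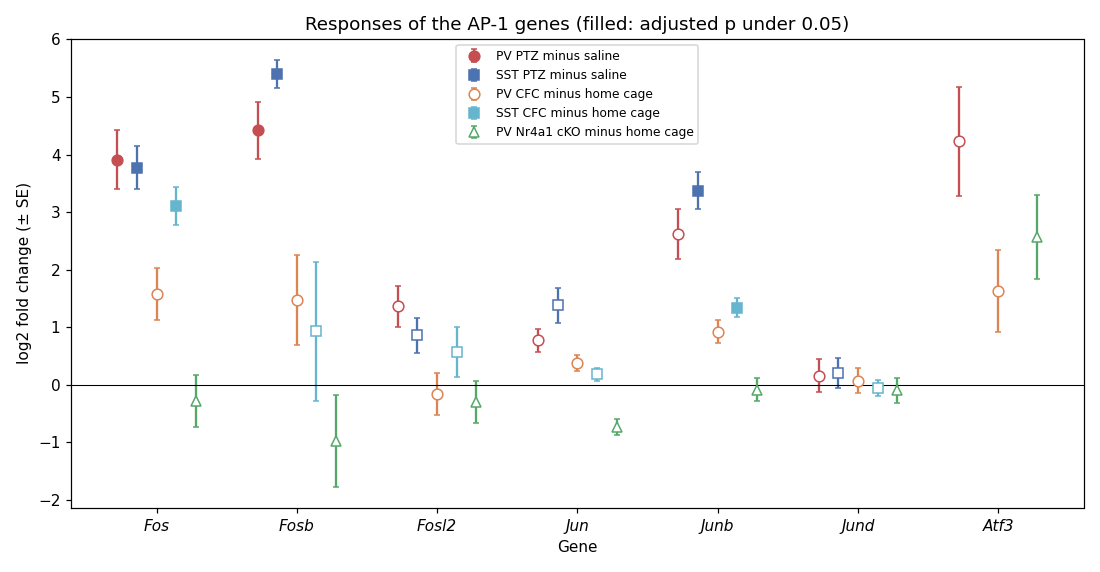
Log2 fold change of each gene (vertical axis, with SE bars) in the 5 PTZ, CFC and PV cKO comparisons, filled where the edgeR adjusted p was under 0.05. The filled points are Fos and Fosb for PV PTZ, Fos, Fosb and Junb for SST PTZ, and Fos and Junb for SST CFC, while Jund stays within 0.21 of 0 in these 5. The comparison of SST with PV saline libraries is not drawn.

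In PV libraries of the Nr4a1 cKO genotype, none of the 7 genes was called. Nr4a1 itself, an orphan nuclear receptor and immediate early gene, stood at 6.68, 16.5 and 7.65 CPM in the PV cKO libraries, against 5.07, 7.43 and 11.7 CPM in the PV home cage libraries (log2 difference 0.38 ± 0.35, edgeR adjusted p = 0.592). The sources used here do not say which exons the floxed allele loses, and counts per gene take in all exons, so this level does not check the genotype labels. Jun was the 1 gene with all cKO libraries lower, at 31.4, 31.1 and 36.9 CPM in cKO libraries, against 59.8, 58.2 and 47.4 CPM in home cage libraries. The log2 difference was -0.74 ± 0.14 and the edgeR adjusted p 0.0904. DESeq2 called Jun lower (adjusted p = 0.000555), and so did edgeR without home cage replicate 1 (adjusted p = 0.0277) or replicate 3 (adjusted p = 0.0388). All genes called numbered 669 with DESeq2, 1224 without home cage replicate 1 and 26 without replicate 3, against 21 with all libraries.

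Atf3 had the opposite direction, at 1.26, 2.83 and 2.80 CPM (36, 68 and 61 counts) in PV cKO libraries, against 0.244, 0.757 and 0.109 CPM (5, 11 and 1 counts) in home cage libraries. The groups were apart, and the log2 difference of 2.57 ± 0.73 had an edgeR adjusted p of 0.151. Without the filter on low counts edgeR called Atf3 higher (adjusted p = 0.0287) and Jun lower (adjusted p = 0.00981), among 1072 genes called. Fos spread widely, at 13.4, 44.3 and 10.2 CPM in cKO libraries, against 28.9, 17.6 and 36.2 CPM in home cage libraries, and overlapped (-0.28 ± 0.45). Fosb, Fosl2, Junb and Jund also overlapped, with log2 differences of -0.97 ± 0.80, -0.30 ± 0.36, -0.09 ± 0.20 and -0.10 ± 0.22. Of the 7 genes 1 was apart and higher and 1 apart and lower, against 9.37% and 9.02% of 15150 genes, of which 0.099% were called higher and 0.0396% lower. Of the marker lists, 9 of 9 oligodendrocyte markers were above 0 (summed 412.5 to 981 CPM in cKO and 220 to 399 CPM in home cage libraries), as were 8 of 8 astrocyte markers (634 to 850 CPM and 505 to 714 CPM) and 8 of 10 vascular markers (38.7 to 264 CPM and 108 to 133 CPM). The 6 PV interneuron markers overlapped in sum (2341 to 3968 CPM and 2654 to 3418 CPM), although Pvalb itself was at 1053, 1346 and 156 CPM in cKO libraries and at 154.8 to 190.4 CPM in home cage libraries; the part of these markers was not tested. The PV CFC and PV cKO comparisons share the 3 home cage libraries.

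For SST cells the cKO libraries (batch 5) and the home cage libraries (batch 4) are in different batches, so genotype and batch cannot be told apart and no test was made. Nr4a1 stood at 15.0, 11.4 and 17.7 CPM in SST cKO libraries, against 23.5, 15.3 and 13.8 CPM in home cage libraries, and overlapped. Fos stood at 14.1, 22.7 and 30.3 CPM in SST cKO libraries, against 26.7, 13.8 and 9.38 CPM in home cage libraries, which overlapped. Jun stood at 63.9, 40.2 and 38.3 CPM in cKO libraries, against 83.9, 76.2 and 85.5 CPM in home cage libraries, with a gap between the groups. Jund stood at 44.8, 36.5 and 36.6 CPM in cKO libraries, against 74.3, 79.8 and 88.0 CPM in home cage libraries, also apart. The share of all genes apart between these batches was not counted. The gaps of Jun and Jund therefore have no background beside them and are not read as a result about these genes. Junb (28.6 to 40.8 CPM in cKO and 38.6 to 55.9 CPM in home cage libraries), Fosb (0.462 to 0.623 CPM and 0 to 1.90 CPM), Fosl2 (4.67 to 6.14 CPM and 2.85 to 5.52 CPM) and Atf3 (0.492 to 1.91 CPM and 0 to 0.832 CPM) overlapped.

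Under saline, SST libraries held less Jund and Fosb than PV libraries of the same batch. Jund stood at 5.14, 4.10, 4.66 and 8.31 CPM in SST saline libraries, against 11.3 and 12.8 CPM in PV saline libraries. Its log2 difference was -1.11 ± 0.30 (SST minus PV, edgeR adjusted p = 0.00821). Fosb stood at 9.31, 7.08, 5.03 and 7.19 CPM in SST saline libraries, against 11.5 and 13.3 CPM in PV saline libraries (-0.78 ± 0.30, edgeR adjusted p = 0.0443), and this call was lost with only those groups in the fit (edgeR adjusted p = 0.0669), with limma voom and without any 1 of 5 of the 6 libraries. Of all 11784 genes, 26% were called higher and 27.1% lower in SST cells, and 30.7% and 28.5% were apart, so 2 of 6 genes lower lies near the background.

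The other 4 genes were not called between SST and PV saline libraries. Fos stood at 48.5, 16.4, 24.9 and 30.8 CPM in SST libraries and at 23.3 and 11.8 CPM in PV libraries (log2 difference 0.76 ± 0.46, edgeR adjusted p = 0.187). Junb and Fosl2 depended on PV saline replicate 1, which had 3.33 CPM of Junb and 91.3 CPM of Fosl2, against 0.855 and 24.6 CPM in PV saline replicate 2. Fosl2 was -0.41 ± 0.34 with both, 0.84 without replicate 1 (edgeR adjusted p = 0.00252) and -1.03 without replicate 2 (edgeR adjusted p = 8.25e-05), and Junb was -0.50 ± 0.45 with both and -1.07 without replicate 2 (edgeR adjusted p = 0.0276). Jun was at -0.60 ± 0.35 and, without SST saline replicate 1, at -1.01 (edgeR adjusted p = 0.00292).

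Per kilobase of merged exons the order of the genes differed between stimulated and unstimulated libraries. In PV PTZ libraries Fos was highest at 54.1 ± 14.1 CPM per kb (SD, n = 4), followed by Fosb at 14.04 ± 3.97, Jun at 13.0 ± 1.47 and Fosl2 at 10.8 ± 3.97 CPM per kb, whose ranges overlapped. Junb and Jund overlapped below them, and Atf3 was lowest at 1.31 ± 0.214 CPM per kb. In PV saline libraries of batch 1 Jun was highest at 7.61 ± 1.15 CPM per kb (SD, n = 3), its range overlapping that of Fos at 3.65 ± 2.91 CPM per kb. In SST PTZ libraries Fos stood at 174.9 ± 68.5 and Fosb at 48.6 ± 15.1 CPM per kb (SD, n = 3) with no overlap, and in SST saline libraries Fos at 12.8 ± 5.78 CPM per kb (SD, n = 4) and Jun at 6.58 ± 3.35 CPM per kb overlapped.

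In the libraries of batches 3 to 5 that had no stimulus, Jund led. It stood at 43.4 ± 8.92 CPM per kb in PV home cage, 40.5 ± 11.6 in PV cKO, 48.4 ± 4.14 in SST home cage and 23.6 ± 2.85 CPM per kb in SST cKO libraries (SD, n = 3 each), above the range of every other gene in each group. After CFC, Fos reached 35.0 ± 4.20 CPM per kb in PV libraries, where it overlapped Jund at 45.5 ± 9.11 CPM per kb. In SST CFC libraries Fos, at 60.8 ± 3.51 CPM per kb, was above Junb at 48.9 ± 1.78 and Jund at 46.6 ± 6.98 CPM per kb, and the last pair overlapped. Fosb, Fosl2 and Atf3 stood at or below 1.31 CPM per kb in each library of batches 3 to 5.

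Levels differed between batches for several genes. Jun stood at 13.7 to 36.7 CPM in the saline libraries of batches 1 and 2 and at 47.4 to 85.5 CPM in the home cage libraries of batches 3 and 4 that carry no floxed allele. Junb stood at 0.855 to 16.8 CPM in all libraries of batches 1 and 2 and at 21.5 to 116.3 CPM in those of batches 3 to 5, and Jund at 4.10 to 12.8 CPM and 36.5 to 90.6 CPM. Fosl2 went the other way, at 24.6 to 141.7 CPM in batches 1 and 2 and 2.85 to 9.60 CPM in batches 3 to 5. The tables were normalized separately and batch 1 holds expected counts, so these are levels set side by side, and batch cannot be told apart from handling of the mice.

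**Figure D4:**
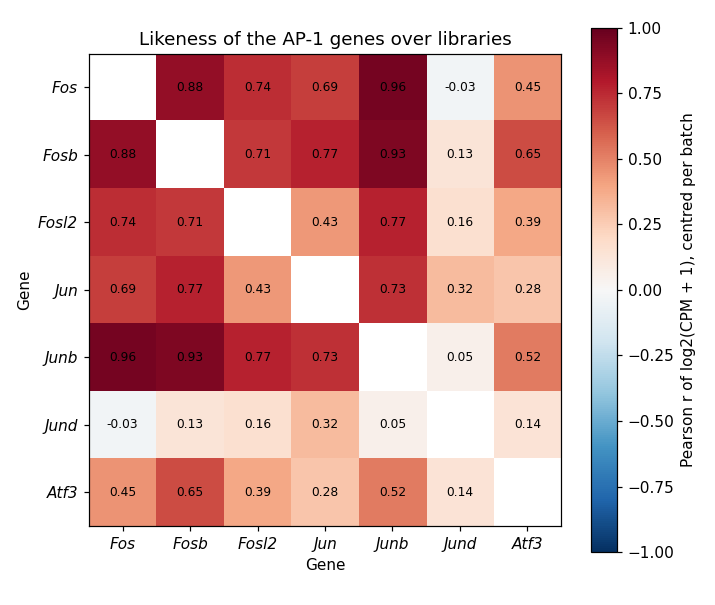
Pearson r between the levels of each pair of genes over libraries, as log2(CPM + 1) centred on the mean of each batch, coloured from -1 to 1 (34 libraries, 25 for pairs with Atf3). Fos, Fosb and Junb form a block at 0.88 to 0.96, and the row of Jund lies between -0.03 and 0.32.

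Over the 34 libraries, with levels centred on the mean of each batch, Fos and Junb moved most closely together (Pearson r = 0.96), followed by Fosb and Junb (0.93) and Fos and Fosb (0.88). Jun had r = 0.73 with Junb and Fosl2 r = 0.77 with Junb. Jund had r between -0.03 and 0.32 with the others, and Atf3, over 25 libraries, r of 0.65 with Fosb and 0.45 with Fos, values that fell to 0.45 and 0.20 without 2 libraries. The libraries share batches and stimuli, so these values describe that common course and carry no test.

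Among 10160 genes in all 5 tables with a mean of at least 5 CPM, the genes most like Fos were Egr1 (r = 0.94), Nr4a1 (0.91), Egr2 (0.90), Btg2 (0.87) and Dusp6 (0.87). Those most like Fosb were Npas4 (0.91), Btg2 (0.88), Egr4, Rgs4 and Egr3, and those most like Junb were Btg2 (0.91), Egr2, Npas4, Egr1 and Nr4a1. Jun was closest to Dusp1 and Egr4 (0.78 each), Ier2, Btg2 and Npas4, and Fosl2 to Nr4a3 (0.80), Egr3, 1700086L19Rik, Egr2 and Dusp6. Jund was closest to Rwdd1 (0.78), Tesc, Rexo2, Gadd45gip1 and Dtnbp1, values that fell to between 0.56 and 0.63 without the 2 libraries farthest from its median. Over 25 libraries and 10494 genes, Atf3 was closest to Ppp1r15a (0.85), Hdac1, Rasgef1b, Ptgs2 and Cpne3.

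The other genes of the AP-1 pathway were read against comparisons in which between 0% and 0.144% of all genes were called in either direction, so that 0 calls in a list of this size lies at the background. Of 24 other bZIP factors (Atf, Maf, Creb and related genes), 18 were tested for PV PTZ, 16 for SST PTZ, 20 for PV CFC, 19 for SST CFC and 20 for PV cKO, and 0 were called in each. The smallest p-values for PV PTZ belonged to Mafk (log2 difference 1.51 ± 0.48, edgeR adjusted p = 0.302) and Cebpd (1.57 ± 0.53, edgeR adjusted p = 0.307). Their medians were 0, 0.12, 0.03, 0.04 and 0.32 in that order of comparisons, against -0.01, -0.01, 0.02, 0 and 0.04 for all genes. In PV cKO libraries 18 of 20 were above 0, with Atf4, a factor of the integrated stress response, at 0.88 ± 0.19 (edgeR adjusted p = 0.116) and Maf at -0.77 ± 0.24 (edgeR adjusted p = 0.172).

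All 24 genes listed as upstream kinases and factors were tested and 0 were called in these 5 comparisons, with medians between -0.03 and 0.04. The nearest were Mapk8, which encodes JNK1, at -0.82 ± 0.25 in PV cKO libraries (edgeR adjusted p = 0.159) and Mapk14, a p38 kinase, at 0.66 ± 0.19 after CFC in PV cells (edgeR adjusted p = 0.186). Of the genes reported elsewhere as AP-1 targets, 13 to 15 of 19 were tested and 0 were called. Npy, a neuropeptide gene, was at -1.0 ± 0.23 after CFC in PV cells (edgeR adjusted p = 0.186). It is also 1 of the 6 SST interneuron markers, of which 4 of 5 tested were below 0 there, and their part was not tested. Vim, which encodes vimentin, was at -2.58 ± 0.42 after CFC in SST cells (edgeR adjusted p = 0.234). In the difference of the SST responses Vim was the target called, at -3.04 ± 0.54 (CFC response minus PTZ response, edgeR adjusted p = 0.0430), beside a median of -3.02 over the 6 vascular markers tested there.

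Between SST and PV saline libraries the calls were 4 higher and 4 lower of 16 bZIP factors, 13 higher and 5 lower of 24 upstream genes, and 6 higher and 4 lower of 13 targets, beside 26% and 27.1% of all genes. Ddit3, which encodes CHOP, was at -3.03 ± 0.24 (SST minus PV, edgeR adjusted p = 1.87e-06) and Crem at 1.54 ± 0.40 (edgeR adjusted p = 0.00652). Map2k1, which encodes MEK1, was at 1.38 ± 0.12 (edgeR adjusted p = 3.82e-06), and Srf, which encodes the serum response factor, at -1.24 ± 0.21 (edgeR adjusted p = 0.000480). Pdyn, which encodes prodynorphin, was at 8.76 ± 0.34 (edgeR adjusted p = 1.12e-08).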

How the data were processed

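RiboTag mRNA of 34 mouse libraries was sequenced. For batch 1 the values that the authors deposited are expected counts, 11.3% of them not whole numbers; they were rounded before testing. For batches 2 to 5 the authors deposited whole read counts that are not normalized. Per the submitters' processing notes, cutadapt 1.18, STAR 2.5.2a, HTSeq 0.11.0 and DESeq2 were used and the builds mm10 and GRCm39 named, with no role or batch given; the sources used here do not say whether counting used strand. Titles gave the groups and replicate numbers. Unused columns of values numbered 0. Totals per library were 12135905 to 20990658 in batch 1, 4933110 to 18413104 in batch 2, 10096035 to 27282912 in batch 3, 15578007 to 20271874 in batch 4 and 22249178 to 24623907 in batch 5. Among 37 replicate pairs 0 were identical. The labels do not tie libraries to animals, and the p-values therefore rest on a spread between libraries that may be technical, and limits for a count of 0 (3 counts per library) cover counting error only.

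Tests were two-sided quasi-likelihood F tests of edgeR 4.0.16 (R 4.3.3), robust, with TMM scaling and filterByExpr, fitted on all libraries of a table with Benjamini-Hochberg adjustment over all genes at 0.05; differences of responses were contrasts over genes common to both tables. SEs were taken from the fold change and the F statistic. The code was tested on simulated data. Alternatives used DESeq2 1.42.0, voom of limma 3.58.1, RLE size factors, no filter, the compared groups only, a replicate block, a sex term and each library left out. Genes named are the 7 members, Nr4a1, list members by a rule (up to 4 called with the largest change, otherwise up to 2 with the smallest p) of which some are given, and the 5 most alike by Pearson r of log2(CPM + 1). The members and lists were chosen with earlier results of these data known. Exon lengths and positions are from GENCODE M21 and promoters from RefSeq.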

Additional observations from a re-analysis of the deposited data

Results flagged for a closer look

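In SST cells the responses of Fosb and Junb differed between CFC and PTZ by the test of the difference itself, and these were the 2 of 6 tested genes with such a result. The CFC response minus the PTZ response was -4.37 for Fosb and -2.0 for Junb on the log2 scale, each with an edgeR adjusted p of 0.0430. Both calls were lost when most single libraries were left out. The limma voom adjusted p was 0.645 for Fosb and 0.292 for Junb. With the replicate block the edgeR adjusted p was 0.260 for Fosb and 0.222 for Junb. Stimulus, batch and baseline coincide in this difference and cannot be told apart.

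Among the groups of 4 libraries, PV PTZ of batch 1 and SST saline of batch 2, none of the 13 sets of values of a gene held a library past the critical value of Dixon's test (0 sets). Groups of 3 or fewer were not tested in this way.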

How the results depend on the processing

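Over 584 values of single genes with 1 library left out, 488 kept both direction and side of the threshold, and over 376 values under other settings 343 did. The number of genes called was more sensitive. For PV PTZ (2 called) DESeq2 gave 6, no filter 1, the sex term 0 and single libraries left out 0 to 4. For PV CFC (0) DESeq2 gave 1, no filter 2 and left-out libraries 0 to 1. For SST CFC (2) no filter gave 1, the replicate block 0 and left-out libraries 0 to 2. For PV cKO (0) DESeq2 gave 1, no filter 2 and left-out libraries 0 to 1. For SST against PV saline (2) limma voom, the compared groups only and the replicate block gave 1 each and left-out libraries 1 to 3. For the SST minus PV response to CFC (0) no filter gave 1. For the PV CFC minus PTZ response (0) DESeq2 gave 1 and left-out libraries 0 to 1. For the SST CFC minus PTZ response (2) limma voom gave 0, the compared groups only 1, the replicate block 0 and left-out libraries 0 to 2. SST PTZ (3) stayed at 2 to 4. The cause of these shifts was not tested. Over all genes, the counts that moved by over 1.5 times under settings that kept all libraries were as follows. For PV PTZ (4 called) DESeq2 gave 215, the replicate block 2 and the sex term 0. For SST PTZ (17) DESeq2 and the compared groups only gave 38 each, limma voom 27 and the replicate block 8. For PV CFC (0) DESeq2 gave 745, no filter 1032, limma voom 1, and the compared groups only and the replicate block 2 each. For SST CFC (6) DESeq2 gave 102, no filter 11 and the replicate block 2. For PV cKO (21) DESeq2 gave 669, no filter 1072 and the compared groups only 10. For the SST minus PV response, PTZ (0) had 1 with DESeq2 and with the replicate block, and CFC (0) had 327 with DESeq2 and 708 with no filter. For the CFC minus PTZ response, PV (1) had 40 with DESeq2 and 0 with limma voom, the compared groups only or the replicate block, and SST (10) had 64 with DESeq2, 2 with limma voom and 0 with the replicate block. With 1 library left out, counts over all genes ran from 0 to 14 for PV PTZ, 13 to 17 for SST PTZ, 0 to 1481 for PV CFC, 1 to 37 for SST CFC and 7 to 1224 for PV cKO. They ran from 0 to 1 for the SST minus PV response to PTZ and 0 to 881 for that to CFC, and from 0 to 7 in PV and 0 to 60 in SST cells for the CFC minus PTZ response. The highest counts of the CFC and cKO results came without home cage replicate 1 of the batch, or of PV for the SST minus PV response.

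No clear pairing by replicate number was seen. The correlation of same-numbered deviations ran from -0.232 to 0.352 and was not over 0.1 for every number of any comparison. So few values cannot show whether same-numbered libraries were handled together. With the replicate block, PV PTZ had 2 genes called, SST PTZ 2 and SST CFC 0, and Fos had adjusted p-values of 0.0503 for SST PTZ and 0.0530 for SST CFC.

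Signs changed for 2 values under limma voom, both far from the threshold: Fosl2 in PV CFC (0.01) and Fosb in the SST minus PV CFC response (0.23). With libraries left out in turn, the sign changed within these ranges of log2 differences. For PV PTZ, Jund ran from -0.02 to 0.31. For PV CFC, Fosl2 ran from -0.40 to 0.26 and Jund from -0.08 to 0.25. For SST CFC, Jund ran from -0.12 to 0.07. For PV cKO, Fos ran from -1.21 to 0.07, Fosb from -1.48 to 0.63, Fosl2 from -0.54 to 0.11, Junb from -0.30 to 0.07 and Jund from -0.35 to 0.07. For SST against PV saline, Fosl2 ran from -1.03 to 0.84 and Junb from -1.07 to 0.86. For the SST minus PV response to PTZ, Fos ran from -1.03 to 0.23, Junb from -0.05 to 1.06 and Jund from -0.11 to 0.29. For the SST minus PV response to CFC, Fosb ran from -2.06 to 0.75 and Jund from -0.24 to 0.08. For the PV CFC minus PTZ response Jund ran from -0.31 to 0.07, and for the SST CFC minus PTZ response Fosl2 ran from -0.54 to 0.05.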

Other observations

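PV saline replicate 1 of batch 1 stood above the other saline libraries of its batch for Fos (16.3 CPM, against 3.19 and 6.26 CPM) and Nr4a1 (37.3 CPM, against 4.64 and 8.33 CPM), and also for Slc17a7, a marker of excitatory neurons (247 CPM, against 56.1 and 56.4 CPM). SST saline replicate 1 led its group for Fos, Jun and Nr4a1, at 48.5, 36.7 and 44.3 CPM, but was the lowest for Slc17a7 (42.0 CPM, against 58.2 to 61.2 CPM).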
